A study of Mus musculus with 24 samples.

Results

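Src family kinases are membrane-anchored tyrosine kinases that pass signals from integrins and immune receptors into the cell. 5 of them, Src, Fgr, Lyn, Fyn and Yes1, and the kinase that restrains them, Csk, were taken by symbol, 6 genes of the 54232 gene identifiers in the count tables. All 6 symbols were matched to an identifier.

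RNA was sequenced from 7-day stromal cultures of the bone marrow of female C57BL/6 mice aged 6 to 8 weeks. The mice were Sh3bp2KI/KI, homozygous for a knock-in at Sh3bp2 and used in the series as a model of cherubism, or wild type (KI and WT below). Cells were sorted into CD45-Sca1+ cells, labelled mesenchymal, and CD45+Sca1+ cells, labelled hematopoietic, so the groups were KI mesenchymal, WT mesenchymal, KI hematopoietic and WT hematopoietic, with 6 libraries each. All 4 groups shared strain, sex, age, culture and the Sca1 gate, and no lineage-restricted promoter or Cre is named in the labels. The labels do not say whether the replicates of a group came from separate animals or cultures, so p-values measure the spread between these libraries only, which may be technical.

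In the resting kinase, phosphorylation of a tyrosine in the tail by Csk folds the enzyme shut, and phosphatases such as Ptpra and Ptprc open it again by removing that phosphate. In myeloid cells Lyn and Fgr phosphorylate the activating (ITAM) and inhibitory (ITIM) motifs of immune receptors, and Src is required in osteoclasts, the bone-resorbing cells, where it organises the adhesion ring and the resorbing border. Sh3bp2 is an adaptor that binds Syk, Src family kinases and their partners, and in people its mutations underlie cherubism, a disease of the jaw with osteoclast-like giant cells. Fyn and Yes1 are widely expressed and act with Src downstream of integrins.

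Total counts ranged from 9875390 to 15826711 per library. Of 18 leukocyte markers, 17 were lower in mesenchymal than in hematopoietic cells of WT cultures, and 1, Itgam, was listed at 0 in every library. All 25 stromal markers were higher in mesenchymal than in hematopoietic WT cells, in which their median level, over 22 of them, was still 9.25% ± 4.46 (mean and SD, n = 6) of the mesenchymal level. In KI hematopoietic libraries that share was 10.6% ± 5.80 (SD, n = 6), and replicate 3 of each genotype had the highest share, 21.6% in KI and 18.1% in WT. In mesenchymal libraries leukocyte markers stood at 0.585% ± 0.353 of the hematopoietic level in KI and 0.440% ± 0.135 in WT (SD, n = 6 each). Sh3bp2 itself averaged 234 ± 37.9 CPM in KI and 210.7 ± 27.2 CPM in WT hematopoietic cells (CPM, counts scaled to a common library total; SD, n = 6 each), and 7.58 ± 0.977 CPM in KI and 7.43 ± 0.777 CPM in WT mesenchymal cells. KI and WT differed by 0.15 (SE 0.12, edgeR adjusted p = 0.448) in hematopoietic and 0.04 (SE 0.12, edgeR adjusted p = 0.897) in mesenchymal cells on the log2 scale. The labels do not give the altered base, and a level of Sh3bp2 cannot tell the genotypes.

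In KI hematopoietic cells Src and Fgr rose several-fold over WT, Lyn and Fyn fell to 0.705 and 0.746 of the WT level, and Yes1 and Csk did not pass the test. In KI mesenchymal cells Src and Fyn rose, Fgr was near 0 in both genotypes, and Lyn, Yes1 and Csk did not pass. Each gene was tested in the libraries of 1 population with edgeR's quasi-likelihood test, with log2 fold changes as KI over WT, p-values adjusted by Benjamini-Hochberg over all genes tested, and calls made at an adjusted p under 0.05. In hematopoietic cells 4 of the 6 kinases were called, 2 higher and 2 lower, where the same rule called 15.9% of 14030 genes, 9.01% higher and 6.89% lower. In mesenchymal cells 2 of the 5 kinases tested were called, both higher, where the rule called 7.27% of 13867 genes, 3.44% higher and 3.83% lower.

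**Figure D1:**
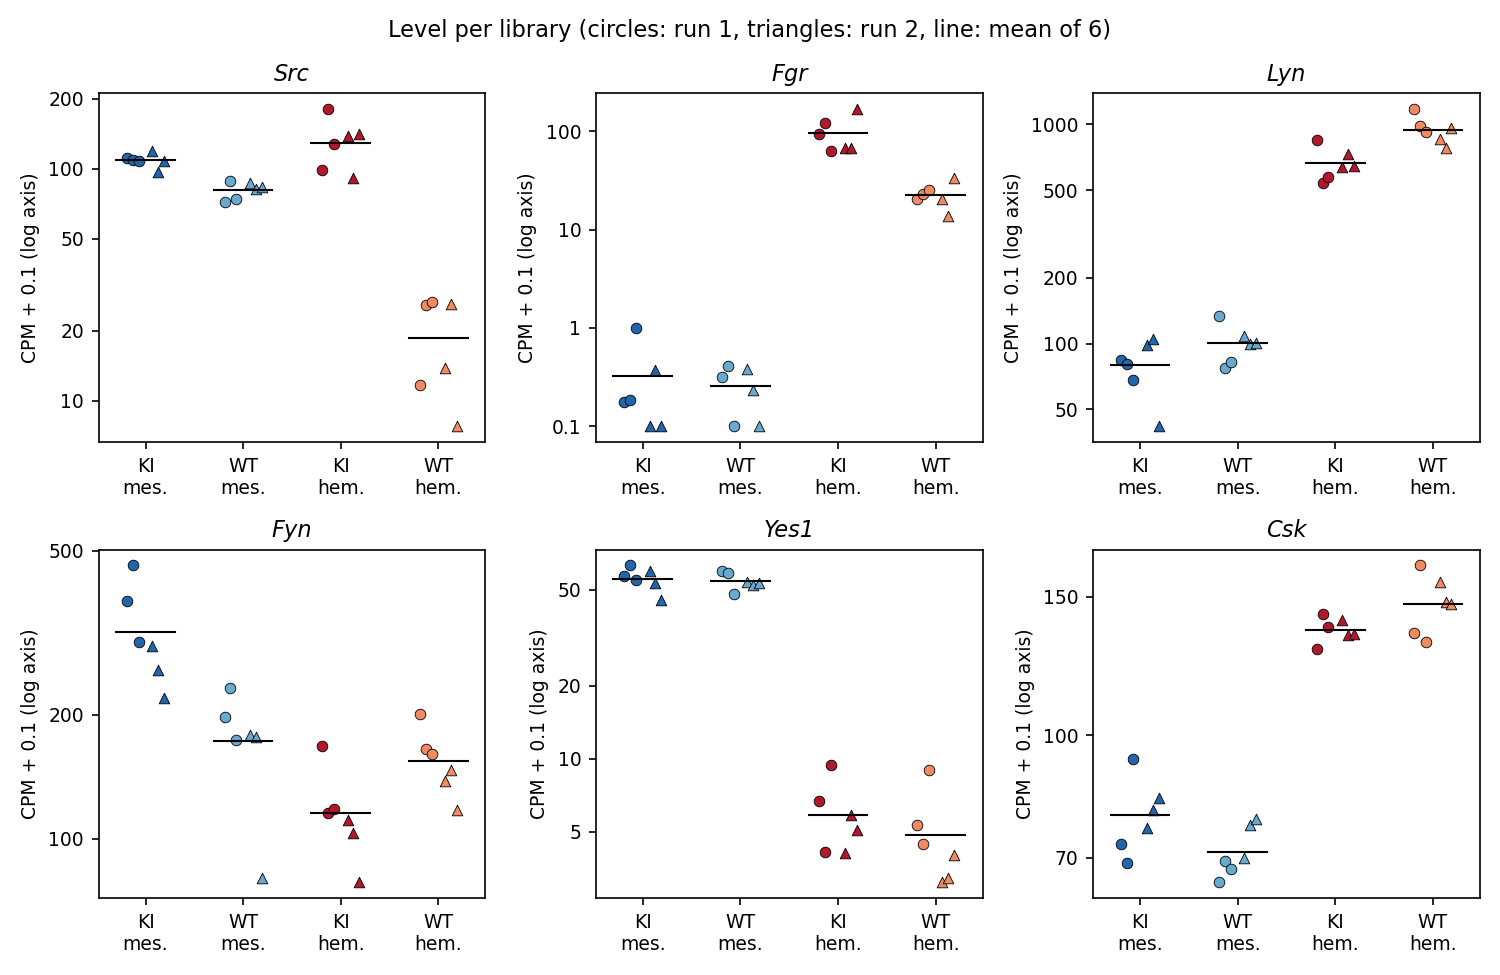
Level of each of the 6 genes in every library, in CPM plus 0.1 on a log axis, for KI and WT mesenchymal cells and KI and WT hematopoietic cells. Circles and triangles are libraries of the 2 runs, which were read from a prefix of the file names. Lines are means of 6, and in hematopoietic cells all KI points for Src and Fgr lie above all WT points.

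Src and Fgr are shown first because they rose together in hematopoietic cells, and the 250 bases before the start site of each are printed for that reason. The windows come from RefSeq on GRCm38.p6, at chr2:157424043-157424292 for Src and chr4:132973845-132974094 for Fgr, both on the plus strand and 5′ to 3′. Capitals mark matches to the searched motifs, described after the sequences.
Src: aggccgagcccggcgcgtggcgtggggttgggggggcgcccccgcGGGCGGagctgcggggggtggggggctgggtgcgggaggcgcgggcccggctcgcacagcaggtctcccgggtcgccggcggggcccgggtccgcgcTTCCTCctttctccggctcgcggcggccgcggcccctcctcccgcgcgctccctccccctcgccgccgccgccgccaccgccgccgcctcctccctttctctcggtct
Fgr: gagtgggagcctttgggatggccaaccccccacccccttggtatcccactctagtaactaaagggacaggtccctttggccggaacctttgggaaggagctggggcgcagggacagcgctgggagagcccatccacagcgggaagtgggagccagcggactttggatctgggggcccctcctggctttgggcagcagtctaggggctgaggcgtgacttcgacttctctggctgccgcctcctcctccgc
4 motifs were searched on both strands, AP-1 as TGANTCA, the core of the PU.1 site as GAGGAA, the GC box as GGGCGG and the TATA box as TATAAA. The Src window held 1 GC box, first base at -205 from the start site, and 1 PU.1 core at -108, read as its reverse complement, and the Fgr window held no match to any of the 4. Over all 32851 RefSeq windows of this length, 32.7% held the GC box, 23.3% the PU.1 core, 12.4% the TATA box and 6.75% the AP-1 motif. The Src window was 82.8% G and C with 40 CpG, and the Fgr window 64.4% with 9 CpG, against medians of 52.4% and 6 over all windows. The Src start site in RefSeq lies inside the GENCODE gene (ENSMUSG00000027646, chr2:157418444-157471862, plus strand), and counts per gene cannot tell start sites apart.

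Src, the founding member of the family, ranged from 91.3 to 180 CPM (median 133) in KI hematopoietic libraries, against 7.67 to 26.5 CPM (median 19.7) in WT. The groups did not overlap, the lowest KI library being above the highest WT library. Of all genes tested, 7.54% had groups that did not overlap, 4.65% with KI higher and 2.89% with KI lower. Means were 129 ± 32.2 CPM in KI and 18.6 ± 8.48 CPM in WT (SD, n = 6 each), a 7.01-fold difference (2.81 on the log2 scale, SE 0.30, edgeR adjusted p = 0.000123). The WT libraries differed among themselves more than the KI libraries did in proportion, with 3 between 25.7 and 26.5 CPM and the other 3 at 13.8 CPM or below. With the estimated stromal RNA subtracted, the difference was 3.41 on the log2 scale (SE 0.46, edgeR adjusted p = 0.000912). The part of stromal RNA in the WT levels was not tested otherwise. The 2 runs were read from a prefix of the file names, and no label states them. Within the runs, Src was 2.67 (SE 0.36) in run 1 and 2.97 (SE 0.44) in run 2 on the log2 scale.

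Fgr, a myeloid member of the family on chromosome 4 (ENSMUSG00000028874, chr4:132974095-133001910, plus strand), ranged from 62.8 to 167 CPM (median 80.5) in KI hematopoietic libraries and from 13.7 to 33.1 CPM (median 21.9) in WT. Here too every KI library lay above every WT library. Means were 96.5 ± 40.8 CPM in KI and 22.6 ± 6.40 CPM in WT (SD, n = 6 each), 4.24-fold apart (2.08 on the log2 scale, SE 0.28, edgeR adjusted p = 0.000477). The spread in KI came mainly from 2 libraries, replicates 6 and 2, at 167 and 121 CPM, while the other 4 lay between 62.8 and 93.1 CPM. Src and Fgr were not highest in the same KI library: Src peaked in replicate 2 and Fgr in replicate 6.

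Markers of osteoclasts moved with Src and Fgr between the genotypes. 13 of 15 osteoclast markers passed the test as higher in KI hematopoietic cells, with a median log2 fold change of 2.53, against -0.00 over all genes tested. Their summed level ran from 3267 to 6986 CPM (median 6037) in KI libraries and from 1148 to 3041 CPM (median 1605) in WT libraries, and none of the 15 was at 0 in all libraries of either group. Of 15 macrophage markers, 3 were higher and 6 lower, with a median log2 fold change of -0.38. Their summed levels, which the most abundant markers dominate, were 18411 to 27206 CPM (median 20909) in KI and 13762 to 22351 CPM (median 17825) in WT. Their part in the changes of the kinases was not tested, and in bulk samples fewer cells of a type and less RNA per cell cannot be told apart.

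Lyn, which phosphorylates both activating and inhibitory receptors of myeloid cells, was lower in KI hematopoietic cells. It ranged from 543 to 848 CPM (median 645) in KI and from 779 to 1172 CPM (median 943) in WT. The ranges met only at replicate 1 of KI, at 848 CPM, which lay above WT replicate 5, at 779 CPM. Means were 665 ± 111.4 CPM in KI and 947 ± 133 CPM in WT (SD, n = 6 each), or -0.51 on the log2 scale (SE 0.13, edgeR adjusted p = 0.0156). The call did not hold without replicate 3 of both genotypes (-0.47, edgeR adjusted p = 0.0556) or within either run alone, where it was -0.64 in run 1 and -0.35 in run 2 (adjusted p = 0.111 and 0.255). Of 7 tested markers of B cells, which also use Lyn, none was higher and 2 were lower in KI (median -1.75), Cd79a at 0.399 CPM in KI and 1.91 CPM in WT and Ighm at 44.3 CPM in KI and 162 CPM in WT. The B cell markers had summed levels of 54.7 to 164 CPM (median 74.6) in KI and 90.6 to 479 CPM (median 247) in WT. In mesenchymal libraries the same sums had medians of 554 CPM in KI and 693 CPM in WT. There 7 of the 8 markers averaged under 1 CPM, and the part of stromal RNA in the hematopoietic sums was not tested. Vpreb3 was at 0 in all WT libraries, and the part of B cells in the level of Lyn was not tested.

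Fyn ranged from 78.2 to 168 CPM (median 113) in KI hematopoietic libraries and from 117 to 200 CPM (median 153) in WT, and these ranges overlapped widely. Means were 116 ± 29.5 CPM in KI and 154 ± 28.2 CPM in WT (SD, n = 6 each), or -0.42 on the log2 scale (SE 0.12, edgeR adjusted p = 0.0291). Run 1 libraries were higher than run 2 libraries in both genotypes, at 134 ± 29.8 and 97.4 ± 17.1 CPM in KI and 175 ± 21.8 and 134 ± 15.2 CPM in WT (SD, n = 3 each). The call depended on the term for the run and on single libraries: without that term the adjusted p was 0.123 by edgeR. It was lost in 1 fit of all 24 libraries (-0.44, edgeR adjusted p = 0.0707), and also when 1 of 6 libraries was left out, KI replicates 2, 3 and 6 and WT replicates 1, 4 and 5, with adjusted p up to 0.0740 and log2 fold changes of -0.35 to -0.40.

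Yes1 and Csk did not pass in hematopoietic cells. Yes1, a widely expressed relative of Src, ranged from 3.996 to 9.29 CPM (median 5.36) in KI and from 2.99 to 8.90 CPM (median 4.12) in WT (0.33, SE 0.25, 95% interval -0.20 to 0.86, edgeR adjusted p = 0.426). These low levels stood at 10.4% of the mean of the mesenchymal libraries in KI and at 8.78% in WT, close to the median of the stromal markers. With the estimated stromal RNA subtracted, Yes1 had too few counts left to test, and the part of stromal RNA was not tested otherwise. Csk, the inhibitory kinase, ranged from 129 to 143 CPM (median 136) in KI and from 131 to 164 CPM (median 147) in WT. The Csk ranges overlapped, and KI differed from WT by -0.11 (SE 0.06, 95% interval -0.24 to 0.02, edgeR adjusted p = 0.271), so that the interval in fold runs from 0.845 to 1.02.

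**Figure D2:**
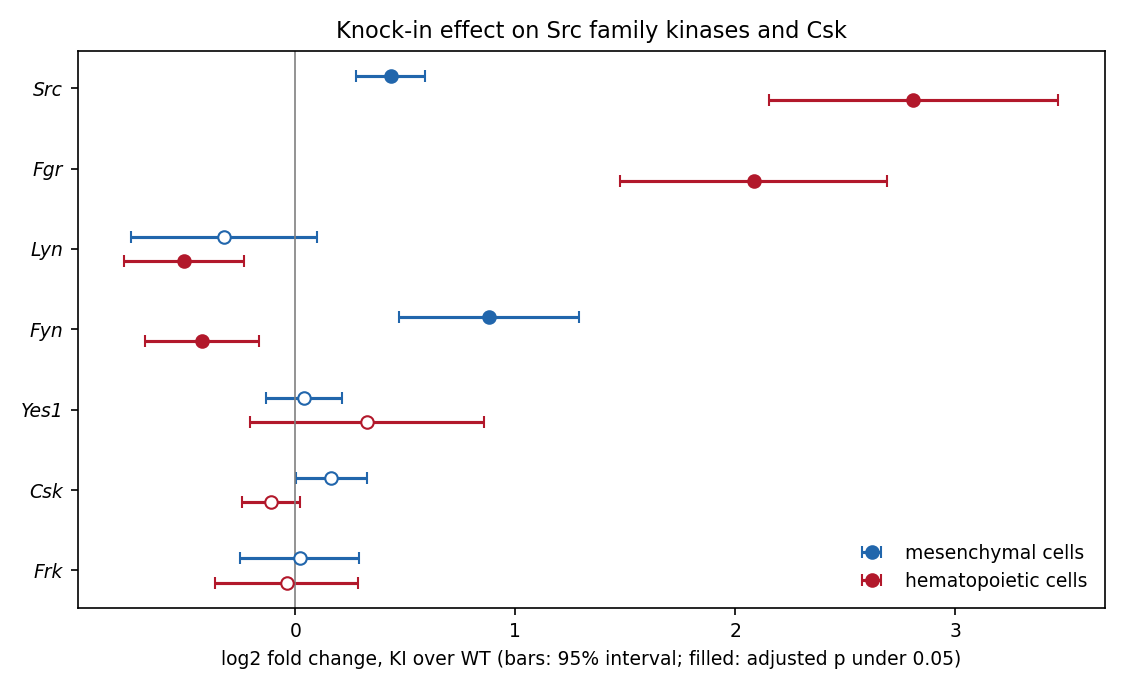
Log2 fold change of KI over WT with its 95% interval for the 6 genes and the relative Frk, in mesenchymal and hematopoietic cells. Filled points passed an adjusted p of 0.05 over all genes, and Src and Fgr stand farthest to the right, at 2.81 and 2.08 in hematopoietic cells.

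Frk, a more distant relative, averaged 5.59 ± 1.56 CPM in KI and 5.76 ± 1.43 CPM in WT hematopoietic cells, and 52.7 ± 9.04 CPM in KI and 52.3 ± 10.7 CPM in WT mesenchymal cells. It passed the test in neither population (edgeR adjusted p = 0.898 in hematopoietic and 0.948 in mesenchymal cells). The lymphocyte kinases Lck and Blk were too low to test in either population, with means of 1.41 CPM or below in all 4 groups.

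In mesenchymal cells Src ranged from 96.8 to 120 CPM (median 109) in KI libraries and from 72.0 to 88.0 CPM (median 82.5) in WT. The groups did not overlap, which held for 3.87% of all genes tested there, 1.87% with KI higher and 2% with KI lower. Means were 109 ± 7.30 CPM in KI and 81.0 ± 6.58 CPM in WT (SD, n = 6 each), or 0.43 on the log2 scale (SE 0.07, edgeR adjusted p = 0.00323) and 1.35-fold. Within the runs the values were 0.46 in run 1 and 0.39 in run 2, neither of which passed with 3 libraries a group (adjusted p = 0.0736 and 0.144 by edgeR). With 1 fit of all 24 libraries, which takes 1 spread for both populations, the call was lost (0.42, edgeR adjusted p = 0.254). Of 10 osteoclast markers tested in mesenchymal cells, 3 were higher and none lower (median 0.38). The summed level of all 15 was 341 to 628 CPM (median 445) in KI and 304 to 495 CPM (median 379) in WT, with none at 0 in all libraries of a group, and their part in the rise of Src was not tested.

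Of the 5 genes tested in mesenchymal cells Fyn had the largest fold change, with 220 to 461 CPM (median 297) in KI and 80.0 to 232 CPM (median 178) in WT. The ranges overlapped at 1 KI library, replicate 6, at 220 CPM, and at 1 WT library, replicate 2, at 232 CPM. Means were 318 ± 87.7 CPM in KI and 173 ± 50.4 CPM in WT (SD, n = 6 each), 1.84-fold apart (0.88 on the log2 scale, SE 0.19, edgeR adjusted p = 0.0148). Run 1 again averaged more than run 2, at 380 ± 80.6 and 257 ± 37.1 CPM in KI and 201 ± 29.1 and 145 ± 56.3 CPM in WT (SD, n = 3 each). Within the runs Fyn was 0.91 in run 1 and 0.85 in run 2 on the log2 scale (adjusted p = 0.0434 and 0.328 by edgeR).

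Fgr was near 0 in mesenchymal cells, with 0 to 11 counts per library in KI and 0 to 4 in WT, too few to be tested. Lyn averaged 79.5 ± 22.6 CPM in KI and 100.1 ± 19.8 CPM in WT mesenchymal cells (-0.32, SE 0.19, 95% interval -0.75 to 0.10, edgeR adjusted p = 0.360). The mesenchymal Lyn level was 11.95% of the hematopoietic mean in KI and 10.6% in WT. Leukocyte markers stood at 0.940% or below in every mesenchymal library. With the estimated leukocyte RNA subtracted, Lyn was still tested and differed by -0.33 (SE 0.19, edgeR adjusted p = 0.343). The part of leukocyte RNA in the level of Lyn was not tested otherwise. Yes1 ranged from 45.0 to 62.8 CPM in KI and from 48.0 to 59.3 CPM in WT (0.04, SE 0.08, 95% interval -0.13 to 0.21, edgeR adjusted p = 0.819). Csk averaged 79.1 ± 8.67 CPM in KI and 71.1 ± 5.27 CPM in WT (SD, n = 6 each), and its difference did not pass (0.16, SE 0.08, 95% interval 0.00 to 0.33, edgeR adjusted p = 0.211).

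The size of the knock-in effect was compared between the populations with an interaction term over all 24 libraries, which called 7.28% of 15389 genes. Src and Fyn passed. For Src the effect in this fit was 0.42 in mesenchymal cells, smaller than the 2.79 in hematopoietic cells, with a difference of -2.36 (SE 0.30, edgeR adjusted p = 4.45e-05). The mesenchymal Src effect by itself did not pass here (edgeR adjusted p = 0.254). For Fyn the effects in this fit were 0.87 in mesenchymal and -0.44 in hematopoietic cells, with a difference of 1.31 (SE 0.23, edgeR adjusted p = 0.000774), and the hematopoietic effect by itself did not pass here (edgeR adjusted p = 0.0707). Within the runs the Src difference was -2.15 and -2.58, and the Fyn difference 1.33 and 1.29, the last with an adjusted p of 0.152 by edgeR. Lyn (0.19, SE 0.24), Yes1 (-0.26, SE 0.27) and Csk (0.28, SE 0.10) did not pass, with adjusted p of 0.747, 0.667 and 0.0821 by edgeR, and DESeq2 gave 0.0271 for Csk. Fgr had too few mesenchymal counts for its effects to be compared.

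**Figure D3:**
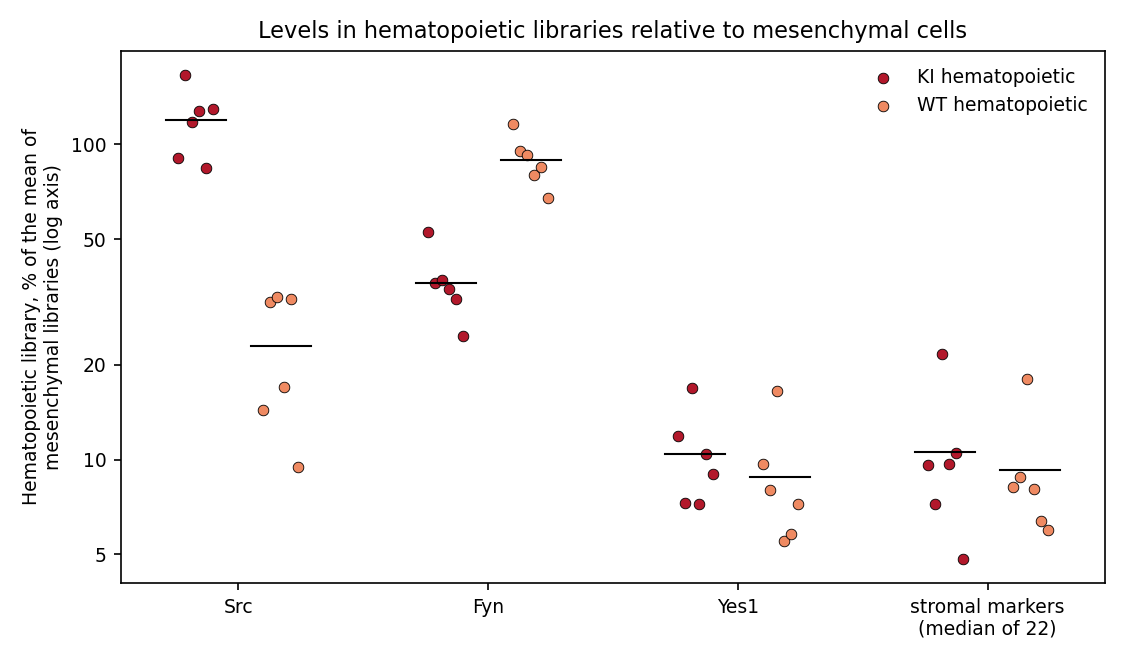
Level of Src, Fyn and Yes1 in each KI and WT hematopoietic library as a percentage of the mean of the mesenchymal libraries of the same genotype, on a log axis, beside the median of 22 stromal markers. Lines are means of 6, and Src lies at 84.0% to 166% in KI and 9.46% to 32.7% in WT, while Yes1 and the stromal markers lie mostly near 10%.

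The 2 populations differed in the members they held most of. In WT, mesenchymal cells had more Yes1 (log2 difference 3.54, SE 0.20) and Src (2.12, SE 0.22) than hematopoietic cells and less Lyn (-3.25, SE 0.18), Csk (-1.06, SE 0.07) and Fgr (-7.12, SE 0.50), all called by edgeR in a comparison that called 73.5% of all genes. Fyn did not pass (0.15, SE 0.16, 95% interval -0.19 to 0.48, edgeR adjusted p = 0.414). In KI, which called 73% of genes, Src did not pass the test between mesenchymal and hematopoietic cells (-0.24, SE 0.21, 95% interval -0.67 to 0.20, edgeR adjusted p = 0.312), and Fyn was higher in mesenchymal cells (1.46, SE 0.16, edgeR adjusted p = 3.26e-08). The Src level of KI hematopoietic libraries was 84.0% to 166% of the mean of KI mesenchymal libraries, against 9.46% to 32.7% in WT. When the estimated stromal RNA was subtracted from the hematopoietic libraries, Src, Fgr, Lyn and Fyn were still called, at 3.41, 2.08, -0.49 and -0.75 on the log2 scale, and Yes1 had too few counts left to test.

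Levels can be set side by side between genes per kilobase of exon. In KI hematopoietic cells Lyn led with 163 ± 27.4 CPM per kilobase, followed by Csk at 36.4 ± 1.32, Src at 29.6 ± 7.37, Fyn at 26.5 ± 6.76 and Fgr at 24.99 ± 10.6, 4 genes whose neighbours in that order overlapped, and Yes1 was last at 0.768 ± 0.266 (SD, n = 6). In WT hematopoietic cells Lyn again led at 232 ± 32.6, and Csk at 39.3 ± 3.36 overlapped with Fyn at 35.4 ± 6.46. Below a gap came Fgr at 5.86 ± 1.66 and Src at 4.25 ± 1.94, which overlapped, and then Yes1 at 0.632 ± 0.292 CPM per kilobase. In mesenchymal cells Fyn led in both genotypes, at 73.0 ± 20.1 CPM per kilobase in KI, apart from all others, and 39.6 ± 11.6 in WT, where it overlapped with Lyn. Src, Csk and Lyn followed with overlapping neighbours, at 24.9 ± 1.67, 21.2 ± 2.32 and 19.5 ± 5.55 in KI and at 18.5 ± 1.51, 19.03 ± 1.41 and 24.6 ± 4.86 in WT. Yes1 came below them, at 7.37 ± 0.819 in KI and 7.20 ± 0.553 in WT, and Fgr was last. With the length of the longest transcript in place of the union of exons, Yes1 stood at 12.1 in KI and 11.8 in WT mesenchymal cells and at 1.26 in KI and 1.04 in WT hematopoietic cells, and in KI mesenchymal cells Csk, at 28.8, came above Src, at 27.8 CPM per kilobase.

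**Figure D4:**
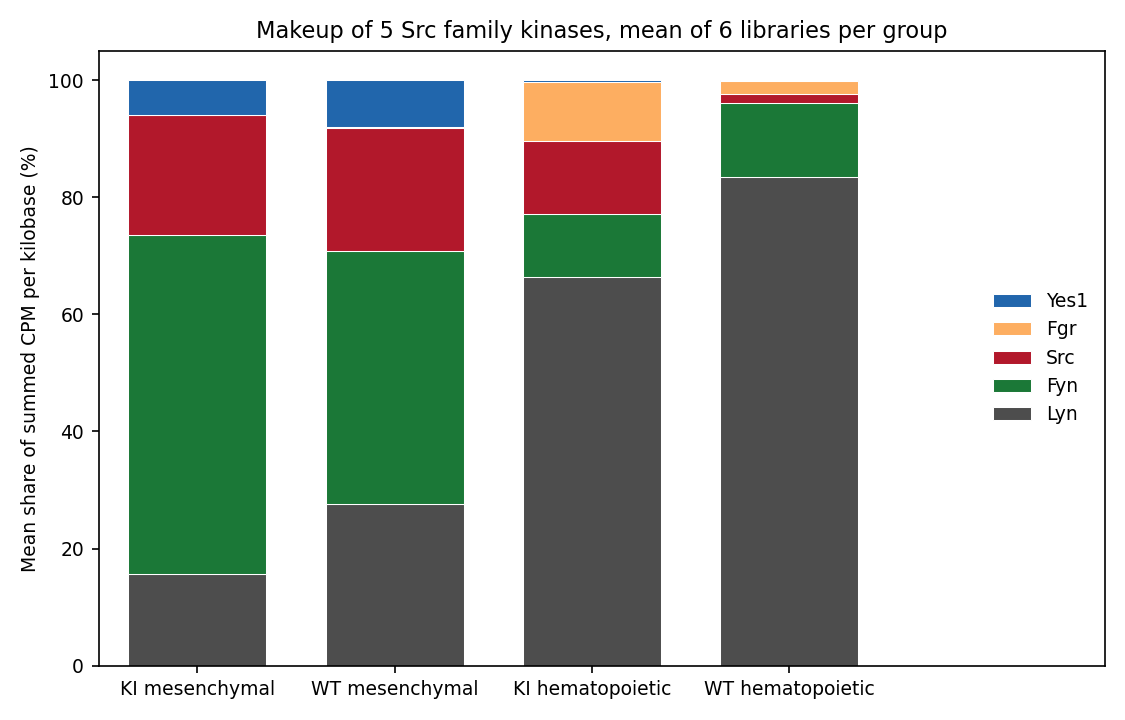
Mean share of each of Src, Fgr, Lyn, Fyn and Yes1 in their summed level per kilobase, in percent, for KI and WT mesenchymal and KI and WT hematopoietic cells (6 libraries each). Src and Fgr together make up 22.5% of the sum in KI hematopoietic cells and 3.68% in WT, and Fyn 57.8% in KI mesenchymal cells and 43.3% in WT.

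Over the 5 kinases Src, Fgr, Lyn, Fyn and Yes1, the summed level in hematopoietic cells was 245 ± 27.3 CPM per kilobase in KI and 279 ± 37.1 in WT (SD, n = 6 each), ranges that overlapped. Lyn took 66.4% ± 5.94 of that sum in KI and 83.4% ± 1.75 in WT. Src and Fgr together took 22.5% ± 6.63 in KI, from 15.8% to 31.1%, against 3.68% ± 0.772 in WT, from 2.31% to 4.52%. In mesenchymal cells the sum was 125 ± 23.2 CPM per kilobase in KI and 90.0 ± 12.3 in WT, and Fyn made up 57.8% ± 5.63 of it in KI and 43.3% ± 8.92 in WT. The ratio of this sum to Csk was 6.75 ± 0.986 in KI and 7.16 ± 1.35 in WT hematopoietic cells, and 6.03 ± 1.69 in KI and 4.77 ± 0.897 in WT mesenchymal cells (SD, n = 6 each). These sums and ratios were not tested.

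Other genes around the family were counted by lists, against 9.01% higher and 6.89% lower over all genes tested in hematopoietic cells. Of 18 tested partners of Csk, phosphatases and adaptors that act on Src family kinases, 4 were higher and 2 lower in KI hematopoietic cells, with a median log2 fold change of -0.04. Cav1, the caveolin that forms membrane pits and binds Src family kinases, averaged 340 CPM in KI and 17.3 CPM in WT (4.28, SE 0.28, edgeR adjusted p = 7.55e-06). Cav1 averaged 106 CPM in KI and 107 CPM in WT mesenchymal cells, and its interaction was called (-4.30, SE 0.41, edgeR adjusted p = 2.43e-06). The Csk relative Matk was higher (1.28, SE 0.22) at 12.4 CPM in KI and 5.05 CPM in WT, as was Ptpn12, a phosphatase of adhesion proteins (0.57, SE 0.11). Ptpra, a phosphatase that opens Src family kinases, was lower (-0.61, SE 0.11), at 316 CPM in KI and 480 CPM in WT.

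Among 18 tested ITAM adaptors, kinases and scaffolds, 1 was higher and 4 lower in KI hematopoietic cells (median -0.17). The 4 lower genes were Vav3 (-0.83, SE 0.17) and Vav2 (-0.54, SE 0.13), exchange factors for small GTPases, the adaptor Fcer1g (-0.65, SE 0.16) and the lipid kinase subunit Pik3cd (-0.36, SE 0.08). The higher gene was Syk, the kinase recruited to phosphorylated ITAMs (0.37, SE 0.10, edgeR adjusted p = 0.0220). Of 16 tested ITIM receptors and their phosphatases, none was higher and 2 were lower (median -0.13), a share below the 15.9% called over all genes. These 2 were the receptors Lair1 (-0.94, SE 0.14), a receptor for collagen, and Cd72 (-0.84, SE 0.15), which B cells also carry. The 2 called B cell markers given with Lyn were also lower, and their part in Cd72 was not tested.

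Of 30 tested adhesion and podosome substrates of Src, 8 were higher and 1 lower in KI hematopoietic cells, with a median of 0.04. The integrin subunits Itgb3 (2.60, SE 0.47), Itgav (0.73, SE 0.09) and Itgb2 (0.56, SE 0.10) were higher, Itgb3 at 127 CPM in KI and 20.8 CPM in WT. Itgb3 and Itgav form the vitronectin receptor of osteoclasts, which signals through Src, and Itgb3 is also among the osteoclast markers counted above. Tns3, a tensin of adhesion sites, was higher as well (0.55, SE 0.10), at 1349 CPM in KI and 922 CPM in WT.

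**Figure D5:**
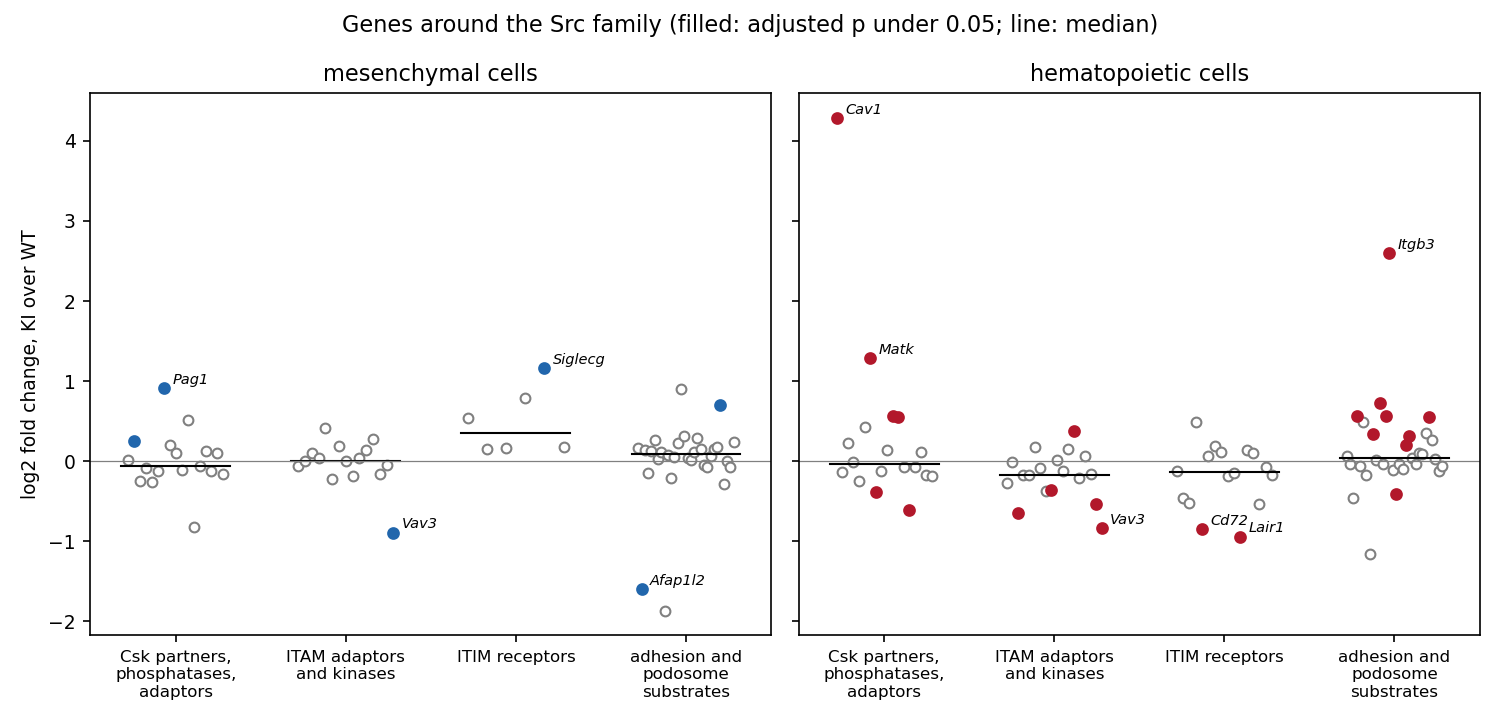
Log2 fold change of KI over WT for every tested gene of the 4 lists around the Src family, in mesenchymal cells (left) and hematopoietic cells (right). Filled points passed an adjusted p of 0.05 over all genes and lines are list medians, which lie between -0.17 and 0.36.

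In mesenchymal cells, where 7.27% of all genes tested were called, the same lists held 2 calls among 17 partners of Csk, phosphatases and adaptors, 1 among 15 ITAM genes, 1 among 6 ITIM genes and 2 among 30 adhesion substrates. Pag1, the membrane adaptor that anchors Csk, was higher (0.92, SE 0.14, edgeR adjusted p = 0.00200), at 37.6 CPM in KI and 20.1 CPM in WT, and Cbl, a ubiquitin ligase for active kinases, was higher by 0.25 (SE 0.07). In hematopoietic cells Pag1 was lower (-0.38, SE 0.09), and the interaction of Pag1 was called (1.30, SE 0.20, edgeR adjusted p = 0.000186). Vav3 was lower (-0.89, SE 0.21) at 4.87 CPM in KI and 9.20 CPM in WT, and the ITIM receptor Siglecg higher (1.17, SE 0.26). Of 30 adhesion substrates, Tnk2, a kinase of the ACK family, was higher (0.70, SE 0.15) and Afap1l2, an adaptor that binds Src, lower (-1.60, SE 0.34). The medians of the 4 lists in mesenchymal cells were -0.06, 0.01, 0.36 and 0.09, against 0.00 over all genes tested.

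The genes whose profiles were most like those of the kinases over the 24 libraries were found by the root mean square difference of centred log2 CPM among 9089 candidates. The closest to Src were Zfp462 (0.34), Ptgfrn (0.42) and Myo1d (0.44), and to Fgr, whose level varied most, Col19a1 (0.67), Mefv (0.73) and Sirpb1c (0.77). Among the genes closest to Lyn were Snx29 (0.31) and Il10rb (0.31), and Fyn was closest to Taf15 (0.33), Hdac4 (0.37) and Foxp1 (0.37). Yes1 was closest to Wwtr1 (0.16), Tjp1 (0.16) and Nckap1 (0.20), and Csk to Trappc8 (0.11), Sypl (0.11) and Ppp2r5a (0.11). Zfp462 averaged 162 CPM in KI and 32.3 CPM in WT hematopoietic cells, and 168 CPM in KI and 94.2 CPM in WT mesenchymal cells, the KI mean being above the WT mean in both populations, as for Src.

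Some of these genes share ground with others. Lyn (ENSMUSG00000042228, chr4:3678115-3813122, plus strand) overlaps 4 genes on the opposite strand, which cover 6.09% of its exon bases, and Yes1 (ENSMUSG00000014932, chr5:32611171-32687057, plus strand) overlaps 3, 2 of them on the opposite strand, which cover 8.46%. Fyn (ENSMUSG00000019843, chr10:39368855-39565381, plus strand) overlaps 3 opposite-strand genes, none of them in its exons, and Src, Fgr and Csk (ENSMUSG00000032312, chr9:57626646-57653631, minus strand) overlap none. Whether the counting used strand is not known here, and the values of Lyn and Yes1 are uncertain to that extent.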

How the data were processed

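The deposited files give raw read counts, 1 whole number for each gene in a library. Per the labels' protocols, total RNA was depleted of ribosomal RNA and made into stranded libraries, and paired ends were sequenced. The build GRCm38 (mm10) and the tools HTSeq 0.9.1, FastQC 0.11.7, DESeq2 1.20.0 and MultiQC are named in the submitters' processing notes. Aligner and strand setting of the counting: not given in the sources used here.

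Of 54232 identifiers, 54165 matched the GENCODE annotation used for symbols, coordinates and exon lengths. The quasi-likelihood test of edgeR 4.0.16 (R 4.3.3) was run after filterByExpr with its minimum count of 10 and minimum total of 15 and after TMM scaling, with the run as a term, each genotype comparison in the 12 libraries of its population and the others in all 24. Adjusted p-values cover all genes tested. The runs were read from a prefix of the file names, and no label states them. CPM values use TMM factors and are divided by the union of exons for levels per kilobase. The share of RNA of the other population is the median, over markers averaging 10 CPM or more in their own population, of their level relative to it. It was subtracted from the counts as an alternative. Replicates differed by more than counting noise (chi-square per degree of freedom 7.23 to 65.0), and same-numbered libraries were not treated as pairs. The tests were checked on simulated data, and DESeq2 1.42.0 served beside edgeR. Alternatives were other scaling, filters, tools, run terms, single runs, left-out libraries and transcript lengths.

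The members, lists and tests were chosen with earlier results of these data known. Named were the members, Frk, Lck, Blk, Sh3bp2, up to 4 called genes by adjusted p of each list in each population, and the 3 nearest profiles of each member; some items named by this rule are not reported here. Syk, the Pag1 value in hematopoietic cells and the interaction values of Cav1 and Pag1 were chosen after their values were seen.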

Additional observations from a re-analysis of the deposited data

Results flagged for a closer look

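In KI mesenchymal cells, replicate 3 had 0.906 CPM of Fgr, set apart from the other 5 libraries, of which the next was at 0.270 CPM. It stands for 11 counts. The same library was among 3 KI mesenchymal libraries with leukocyte markers at 0.844% to 0.940% of the hematopoietic level. The others of these, replicates 4 and 5, had 0 and 4 counts of Fgr, and the part of leukocyte RNA was not tested. Chance flags about 1 in 20 groups, and 24 groups were looked at. The effect of the knock-in on Src differed between mesenchymal and hematopoietic cells by the interaction test, with a difference of -2.36 on the log2 scale, the mesenchymal effect by itself not passing in that fit. That on Fyn differed too, by 1.31, positive in mesenchymal and negative in hematopoietic cells, the negative one not passing in that fit.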

How the results depend on the processing

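Of 830 recomputed fold changes of the members, 807 kept their direction and side of the threshold. This count pools the knock-in, interaction and population comparisons, and nearly all changes fell on knock-in effects. The call of Fyn in hematopoietic cells was lost in 6 of 12 fits that left out 1 library. In hematopoietic cells 672 genes were called in run 1 alone and 218 in run 2 alone, against 2231, and 2 and 1 members, against 4; without replicate 3 of both genotypes, added after seeing the data, 2 members were called, Src and Fgr. In mesenchymal cells, against 1008 genes and 2 members, 391 and 1 were called in run 1, 76 and 0 in run 2, 1645 genes by DESeq2, and 1 member with no filter or with 1 fit of all 24 libraries. The interaction called 180 genes in run 1, 138 in run 2 and 1 member in run 2, against 1121 and 2. Leaving out 1 library gave 646 to 1036 mesenchymal calls, the lowest without KI mesenchymal replicate 1, and 1745 to 2206 hematopoietic calls. Yes1 in mesenchymal cells ran from -0.000994, without WT mesenchymal replicate 3, to 0.0809 (adjusted p = 0.580 or more by edgeR). Fgr in hematopoietic cells missed the threshold in run 2 (2.17, adjusted p = 0.0811 by edgeR), and Fyn in mesenchymal cells with no filter (adjusted p = 0.0614 by edgeR). The causes were not tested, and the single runs also held fewer libraries.

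With the replicate number as a block, hematopoietic calls were 3315, mesenchymal calls 1258 and interaction calls 1331, and no call of a member changed. Same-numbered KI and WT libraries share a number and a run, and no label pairs them. Their deviations from the group means correlated at 0.0894 to 0.449 in hematopoietic and -0.0380 to 0.335 in mesenchymal cells, and with the run removed at -0.0513 to 0.409 and -0.139 to 0.235. Using the longest transcript moved 13 of 24 levels per kilobase by more than 1 SD. Fgr had 0 to 11 counts in KI and 0 to 4 in WT mesenchymal libraries, and was not tested within that population.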
